A study of Mus musculus with 6 samples.

Results

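The 6 Ifit genes of the mouse, Ifit1, Ifit2, Ifit3, Ifit3b, Ifit1bl1 and Ifit1bl2, encode interferon-induced proteins built from tetratricopeptide repeats. They were found by gene symbol in a table of raw counts for 55401 Ensembl gene identifiers, and all 6 passed the filter on low counts. The family was selected on its difference between the 2 mimics in these same libraries. Its fold changes are therefore given as a description, with a standard error and no test. RNA came from ADC106, a line of mouse angiosarcoma cells, a tumour with features of vessel-lining cells. The NC group (genotype label WT) received a mimic labelled NC, and the miR-497 group (genotype label miR-497 overexpression) received an miR-497 mimic. A mimic is a synthetic RNA duplex that loads Argonaute proteins as a microRNA would. Both were used at 12.5 nM for 3 days, with 3 poly(A)-selected libraries a group. None of the 6 libraries came from cells without a mimic. All cells came from a single line, and both groups were transfected. Fell, rose, lower and higher therefore compare miR-497 with NC only. Whether the NC mimic raised a gene or the miR-497 mimic lowered it cannot be told apart. The labels do not say whether libraries came from separate cultures, so p-values measure the spread between these libraries, which may be technical.

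Ifit proteins are part of the antiviral state. Type I interferon binds its receptor, the receptor-bound kinases Jak1 and Tyk2 are activated, and they switch on ISGF3, a factor that includes Stat2 and Irf9 and binds interferon-response elements in Ifit promoters. Irf3, activated by sensors of foreign RNA and DNA, can also switch on Ifit genes without interferon. Ifit1 binds RNA whose cap lacks ribose methylation and blocks its translation, Ifit2 and Ifit3 associate with it, and Ifit1 and Ifit2 have been reported to bind the translation factor eIF3.

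The mature miR-497a-5p of the mouse is shown because its seed, the bases 2 to 8 in capitals, defines the sites searched for below. The sequence is from RefSeq (GRCm38.p6), in which 9 other mature microRNAs have the same seed. The labels do not give the sequence of the mimic itself.
miR-497a-5p: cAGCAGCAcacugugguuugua

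The Ifit genes lie together on chromosome 19 at chr19:34550694-34650009 (GRCm38), a stretch of 99316 bases. In order they are Ifit2 (ENSMUSG00000045932, chr19:34550694-34576419), Ifit3 (ENSMUSG00000074896, chr19:34583531-34588731), Ifit1bl1 (ENSMUSG00000079339, chr19:34592891-34601956), Ifit3b (ENSMUSG00000062488, chr19:34607970-34613401), Ifit1bl2 (ENSMUSG00000067297, chr19:34617049-34640743) and Ifit1 (ENSMUSG00000034459, chr19:34640871-34650009). Ifit1bl1 and Ifit1bl2 are on the minus strand and the others on the plus strand. No exon base of any member lies under an exon of an opposite-strand gene in GENCODE M21, so strand setting does not mix their counts with annotated antisense genes. In every member nearly the whole coding sequence sits in the last exon, as in Ifit1, where exon 2 holds 1384 coding bases and exon 1 holds 5.

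Sites for the miR-497-5p seed were searched in the longest annotated 3' UTR of each gene, as TGCTGCT (7mer-m8, or 8mer when A follows) or GCTGCTA (7mer-A1). Such a site was present in Ifit3 and Ifit3b and in no other member. By comparison, 28.1% of the 12859 tested genes with a 3' UTR held a site. In both paralogs it was a 7mer-m8 followed by T, starting at base 218 of the 3' UTR, at chr19:34588485-34588491 in Ifit3 and chr19:34612855-34612861 in Ifit3b. These 30-base windows hold the only sites found in the family, at the same place in near-identical paralogs. Whether a site bears on the fold changes was not tested. Capitals mark the site, and the windows differ at 2 bases, both outside it.
Ifit3 site: gtgctgtggagTGCTGCTtatggggagaat
Ifit3b site: gtgctgtgcagTGCTGCTtatggggacaat
No match was found in the 3' UTRs of Ifit1 (1152 bases), Ifit2 (1945 bases), Ifit1bl1 (752 bases) or Ifit1bl2 (1765 bases).

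Promoter sequences were then compared, because the 6 genes were all lower with miR-497. The table of RefSeq promoters (GRCm38.p6, 250 bases before to 50 after each start site) held entries for all 6 members. The core of an interferon-response element was searched on both strands as the word GAAA followed, after any 2 bases, by a second GAAA; on the opposite strand it reads as TTTC words. Matches may overlap. Within 250 bases before a start site it occurred in 5 of the 6 members, against 936 of 27025 genes with an entry (3.46%). At least 2 such pairs before 1 start were found in Ifit1, Ifit3, Ifit3b and Ifit1bl2, against 0.211% of all genes. Ifit1bl1 had 1 pair before each of its 2 annotated starts, and the windows at both annotated Ifit2 starts had none. The first coding bases of Ifit2 lie in a later exon, at chr19:34570219-34570370, and the region just before that exon was not searched. Capitals mark the pairs below.
Ifit1, chr19:34640765-34640833, plus strand, bases -124 to -56 from the start: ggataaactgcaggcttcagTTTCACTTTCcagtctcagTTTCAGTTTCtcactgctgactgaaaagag
Ifit3, chr19:34583353-34583436, plus strand, bases -176 to -93 from the start: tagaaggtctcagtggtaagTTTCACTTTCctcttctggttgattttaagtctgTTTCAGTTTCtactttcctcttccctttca
Ifit1bl1, chr19:34602043-34602092, minus strand, bases -124 to -75 from the start: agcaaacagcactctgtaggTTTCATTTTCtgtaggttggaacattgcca
The Ifit3b window (chr19:34607749-34607832) was identical to that of Ifit3, with 0 differing bases, and the whole entries of the pair were 99.2% identical over 260 aligned bases. Ifit1bl2 is transcribed the other way from Ifit1, and 1 of its 2 annotated starts lies 145 bases from that of Ifit1. The 2 pairs before this start are those of Ifit1 read on the opposite strand, at bases -70 to -61 and -51 to -42 from it. The other Ifit1bl2 start, at chr19:34629811, had no pair before it. The word TTCNNNGAA, the core bound by Stat dimers, occurred before a start of Ifit2 only (7.02% of all entries). TATAAA occurred only before both starts of Ifit1bl1 and before the Ifit1bl2 start at chr19:34629811 (7.59% of all entries). A match describes letters and is not evidence of binding.

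Close paralogs share reads, and how multiply aligned reads were counted is not given in the sources used here. The coding sequences of Ifit3 and Ifit3b, 1212 bases each, were identical at 1201 bases (99.1%). Ifit1bl1 and Ifit1bl2 were 88.3% identical over aligned coding bases, Ifit1 was 76.1% and 75.9% identical to them, and Ifit2 was between 56.4% and 62.3% identical to the others. Of all 100-base words in the Ifit3 transcript, 31.7% also occurred in Ifit3b, and 27.4% of those in Ifit3b occurred in Ifit3. The shares were 3.29% for Ifit1, 2.91% for Ifit1bl2, 0.524% for Ifit1bl1 and 0% for Ifit2, whose counts are the least exposed to this ambiguity. The division of counts between Ifit3 and Ifit3b is uncertain for this reason, and their sum is given where it matters.

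Library totals ran from 28525751 to 36159499 counts with NC and from 25777676 to 32126726 with miR-497. Of 14661 genes tested with edgeR's quasi-likelihood test, 3817 fell and 3490 rose from NC to miR-497 (Benjamini-Hochberg adjusted p under 0.05), and the median log2 fold change of all genes was -0.02. No library had a count for the loci Mir497, Mir497b, Mir195a or Mir195b. A list of 8 miR-16 family targets, chosen with earlier results of these data known, was therefore looked at instead. All 8 (Ccnd1, Ccnd2, Ccnd3, Ccne1, Cdk6, Chek1, Bcl2 and Cdc25a) were lower, where 26.0% of all genes tested were. Their median log2 fold change was -1.04, with a range from -2.12 to -0.29. Because of that choice, this is not an independent check of the label of the mimic. Endothelial markers were abundant, with 11 of 12 tested and a summed level of 9320 to 10042 CPM with NC and 9143 to 9627 CPM with miR-497. Within the list 3 genes fell and 6 rose, where 26.0% and 23.8% of all genes tested did, and only 4 rose without NC library 2. Pecam1 was among those that fell (-0.52, edgeR adjusted p = 2.7e-06) and Emcn among those that rose (1.03, edgeR adjusted p = 3.2e-10). Sox17 had at most 1 count. Of 6 leukocyte markers Itgam and Cd3e had 0 counts, Adgre1 at most 2 and Ptprc 4 to 7. Csf1r, at 1.06 CPM on average with NC and 0.909 with miR-497, did not pass (edgeR adjusted p = 0.68). The plasmacytoid marker Siglech had 0 counts. The other marker of plasmacytoid cells, Bst2, which is also on the effector list below, fell from 599.98 to 235 CPM on average (-1.35, edgeR adjusted p = 8.2e-11). The summed level of the 6 leukocyte markers, most of it Cd68, moved with the group, from 9.34 to 9.71 CPM with NC to 15.7 to 20.97 CPM with miR-497. The summed level of the fibroblast and smooth muscle list did so too, from 317 to 336 CPM up to 503 to 599 CPM. In that list Col1a1, Col1a2 and Acta2 rose, Pdgfrb fell (-0.37, edgeR adjusted p = 0.0050) and Pdgfra did not pass (0.10). Dcn had at most 4 counts a library. The part of these marker lists in the results below was not tested. In bulk RNA, fewer cells of a type and less RNA per cell cannot be told apart.

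Every Ifit gene was lower with the miR-497 mimic, by between 4.32-fold (Ifit1bl2) and 37.3-fold (Ifit3b). The median log2 fold change of the 6 was -3.55. All 6 were among the lower genes, which made up 26.0% of the genes tested, and in all 6 the miR-497 libraries lay below every NC library, as they did for 29.6% of the genes tested. Since the family was chosen for this difference, nothing is read from either count. CPM below are counts scaled for library size by TMM, ± values are SDs over 3 libraries, and fold changes are miR-497 over NC.

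Ifit1, the sensor of RNA whose cap lacks ribose methylation, stood at 395, 389 and 331 CPM in NC libraries 1 to 3. In miR-497 libraries 1 to 3 it stood at 42.3, 44.7 and 35.3 CPM. The groups did not overlap, and library 3 was the lowest of each. Its log2 fold change was -3.19 (SE 0.0866), from 372 ± 35.6 to 40.7 ± 4.89 CPM.

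Ifit2, whose product is linked to restriction of neurotropic viruses and to cell death, gave 199, 204 and 171 CPM with NC and 43.3, 35.5 and 39.8 CPM with miR-497. The groups did not overlap, but the distance was smaller than for Ifit1. The log2 fold change was -2.28 (SE 0.0789), from 191 ± 17.96 to 39.5 ± 3.92 CPM. The ratio of Ifit1 to Ifit2 counts was 1.98, 1.91 and 1.94 with NC and 0.975, 1.26 and 0.887 with miR-497.

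Ifit3, an adaptor that stabilises Ifit1 complexes in human cells, read 429, 419 and 349 CPM with NC and 19.5, 23.1 and 20.3 CPM with miR-497. NC library 3 was the lowest of its group, and still lay far above the highest miR-497 library. Its log2 fold change was -4.25 (SE 0.0868), from 399 ± 43.4 to 20.97 ± 1.86 CPM.

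Ifit3b, its near-copy, read 186, 189 and 157 CPM with NC and 5.09, 4.63 and 4.56 CPM with miR-497. These rest on 4416 to 6884 counts a library with NC and 128 to 147 with miR-497. The log2 fold change of -5.22 (SE 0.0915) was the lowest of the family and ranked 9 from the bottom among all genes tested. The NC libraries held 2.31, 2.22 and 2.23 Ifit3 counts for each Ifit3b count, and the miR-497 libraries 3.84, 4.99 and 4.45. Both genes were chosen on this contrast and the split of shared reads between them is uncertain, so nothing is read from the ratio. With the counts of Ifit3 and Ifit3b added together, which removes the question of how shared reads were split between them, the log2 fold change was -4.48.

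The Ifit1-like genes, named for their resemblance to Ifit1, rest on the fewest counts. Ifit1bl1 was at 29.4, 31.9 and 24.4 CPM with NC and at 2.59, 1.54 and 1.67 CPM with miR-497, where it had 65, 49 and 51 counts. The log2 fold change was -3.91 (SE 0.163), and miR-497 library 1 stood above the other 2 of its group.

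Ifit1bl2 was at 8.39, 7.92 and 7.10 CPM with NC and 1.99, 1.89 and 1.54 CPM with miR-497, with 200 to 289 and 47 to 60 counts. Its log2 fold change of -2.11 (SE 0.192) was the smallest in size. Counts of Ifit1bl1 exceeded those of Ifit1bl2 by 3.51, 4.02 and 3.44 times with NC, and the ratios were 1.30, 0.817 and 1.09 with miR-497.

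**Figure D1:**
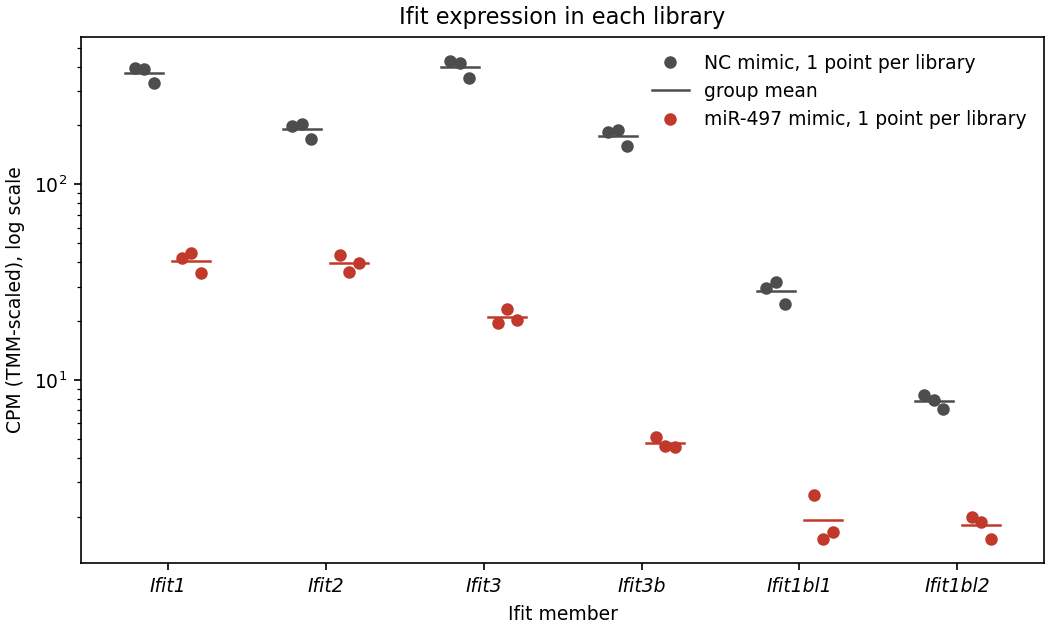
CPM on a log axis for the 6 Ifit genes in the 3 NC libraries (grey points) and the 3 miR-497 libraries (red points), with horizontal lines at the group means. For each gene all red points lie below all grey points, and the gap is widest for Ifit3b, at 177 and 4.76 CPM on average.

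The members thus differed among themselves in how far they fell, and the makeup of the family changed. Together the 6 genes took 0.127%, 0.125% and 0.103% of all counts in the NC libraries and 0.0112%, 0.0110% and 0.0105% in the miR-497 libraries. Within this total the NC libraries were nearly alike: Ifit3 made up 33.9% ± 0.408 of family counts, Ifit1 31.6% ± 0.244, Ifit2 16.3% ± 0.272, Ifit3b 15.1% ± 0.152, Ifit1bl1 2.43% ± 0.122 and Ifit1bl2 0.665% ± 0.0239 (SD, n = 3). These are shares of counts and are not adjusted for length. With miR-497 the shares were different. Ifit1 held 37.1% ± 2.98 and Ifit2 36.1% ± 3.64, Ifit3 19.1% ± 1.91, Ifit3b 4.34% ± 0.158, Ifit1bl1 1.75% ± 0.448 and Ifit1bl2 1.64% ± 0.128 (SD, n = 3). Ifit2 therefore rose in share while its own CPM fell, and the spread between libraries was larger in the miR-497 group for each share.

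**Figure D2:**
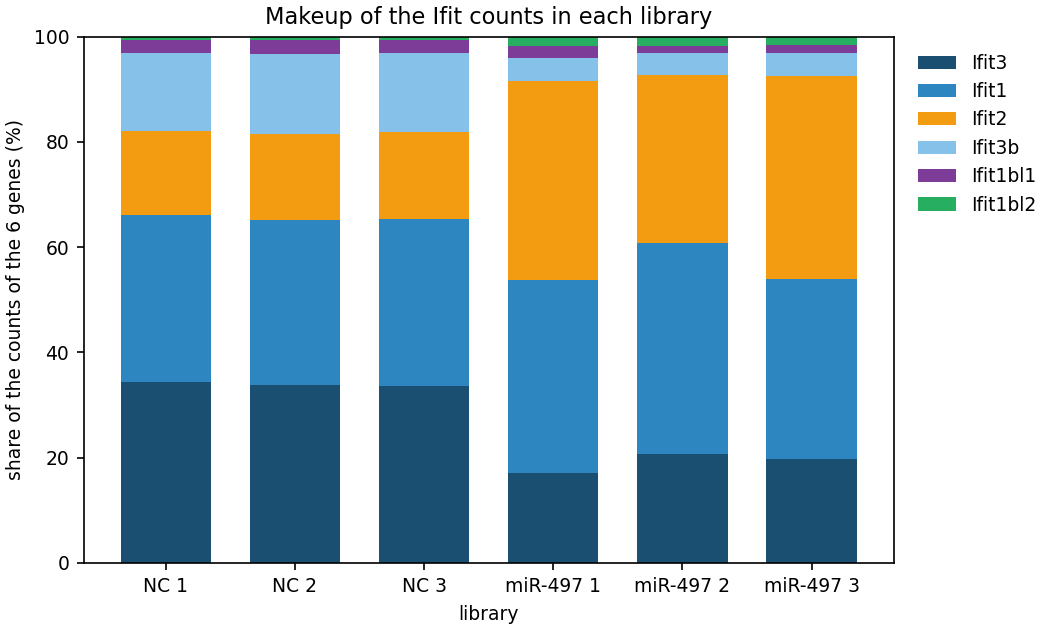
Stacked bars give the share of the summed counts of the 6 Ifit genes, in percent, held by each gene in each library. The NC bars are nearly identical, while in the miR-497 bars the orange Ifit2 segment covers 31.9% to 38.6% and the dark Ifit3 segment 17.0% to 20.7%.

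Levels of different genes were compared per length, as CPM per kilobase of merged annotated exons (RPKM). With NC the order was Ifit3 (229 ± 24.9 RPKM), Ifit1 (140.0 ± 13.4), Ifit3b (88.5 ± 8.76), Ifit2 (48.8 ± 4.57), Ifit1bl1 (12.6 ± 1.68) and Ifit1bl2 (2.32 ± 0.193; SD, n = 3). No 2 neighbours in this order overlapped between libraries. With miR-497 the order of levels was Ifit1 (15.3 ± 1.84 RPKM), Ifit3 (12.02 ± 1.07), Ifit2 (10.1 ± 0.998), Ifit3b (2.38 ± 0.145), Ifit1bl1 (0.856 ± 0.252) and Ifit1bl2 (0.537 ± 0.0697; SD, n = 3). Here the ranges of Ifit1, 13.3 to 16.8, Ifit3, 11.2 to 13.2, and Ifit2, 9.04 to 11.03 RPKM, came close to each other. When length was replaced by the number of 100-base words found in no other gene, Ifit3 (18.6 ± 1.65, SD, n = 3) came before Ifit1 (16.5 ± 1.98) in the miR-497 group, and their ranges overlapped.

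Libraries of one group also differed from each other. NC library 3 was the lowest of the 3 NC libraries for all 6 Ifit genes, by 0.13 (Ifit1bl2) to 0.22 (Ifit1bl1) below the NC mean of log2 CPM. It was also the lowest for 19 of 25 interferon-induced effector genes, and for 36.2% of all genes tested. In the miR-497 group no library was lowest for all members: library 3 was lowest for 3 of them, library 2 for 2 and library 1 for 1. That library 3 was also the lowest of its group for 18 of the 25 effector genes, and for 5640 of the 14661 genes tested. Without NC library 3 the log2 fold changes were -3.26 for Ifit1, -2.34 for Ifit2, -4.32 for Ifit3, -5.29 for Ifit3b, -3.997 for Ifit1bl1 and -2.16 for Ifit1bl2, each a little larger in size than with all libraries.

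Genes with a profile most like that of the family were ranked by the root mean square difference, over the 6 libraries, between their log2 CPM (centred on the NC mean) and the mean profile of the members. Among 10329 genes outside the family with a mean log2 CPM of at least 2, the 6 nearest were Ifi44 (0.110), Tnfsf10 (0.161), Usp18 (0.162), H2-Q4 (0.216), Cmpk2 (0.241) and Gbp3 (0.244). Since profiles were centred on the NC mean, the measure mostly matches the size of the difference between mimics, on which the family was chosen. Ifi44, Usp18, Cmpk2 and Gbp3 are also on the list of effector genes described below. The members themselves were at distances of 0.216 (Ifit1) to 1.22 (Ifit3b) from the family mean, so several of them were less like it than these genes were. Measured against single members, a comparison added after the values were seen, the nearest gene was Gbp3 for Ifit1 (0.0760), Rtp4 for Ifit2 (0.101), Mx2 for Ifit3 (0.156), Iigp1 for Ifit3b (0.349), Apol9a for Ifit1bl1 (0.158) and Irgm1 for Ifit1bl2 (0.0788). The third nearest to Ifit1bl2 was Ccnd3 (0.0978), a cyclin gene on the list of miR-16 family targets.

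The genes around the cluster did not share its fold changes. All 11 protein-coding genes within 500000 bases of its ends were tested, and their log2 fold changes lay between -0.86 and 0.92. Lipa, a lysosomal lipase gene 23220 bases from the cluster, went from 182 ± 8.12 to 216 ± 7.83 CPM (log2 fold change 0.25, SE 0.0536, edgeR adjusted p = 0.00099). On the other side Slc16a12, a transporter gene 18394 bases away, went from 28.7 ± 1.65 to 41.8 ± 2.44 CPM (0.54, SE 0.0749, edgeR adjusted p = 1.2e-05). Ch25h, which makes 25-hydroxycholesterol and is itself known as interferon-induced, was low at 0.958 ± 0.405 and 1.28 ± 0.282 CPM with an edgeR adjusted p of 0.44 (log2 fold change 0.40, SE 0.400). Of the remaining neighbours Acta2, which is also on the fibroblast and smooth muscle list, rose (0.92, SE 0.0691, edgeR adjusted p = 1.1e-08), Kif20b (-0.86, SE 0.0776, edgeR adjusted p = 1.1e-07) and Stambpl1 (-0.46, SE 0.0863, edgeR adjusted p = 0.00029) fell, and Lipn, Lipm, Ankrd22, Fas and Pank1 did not pass.

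**Figure D3:**
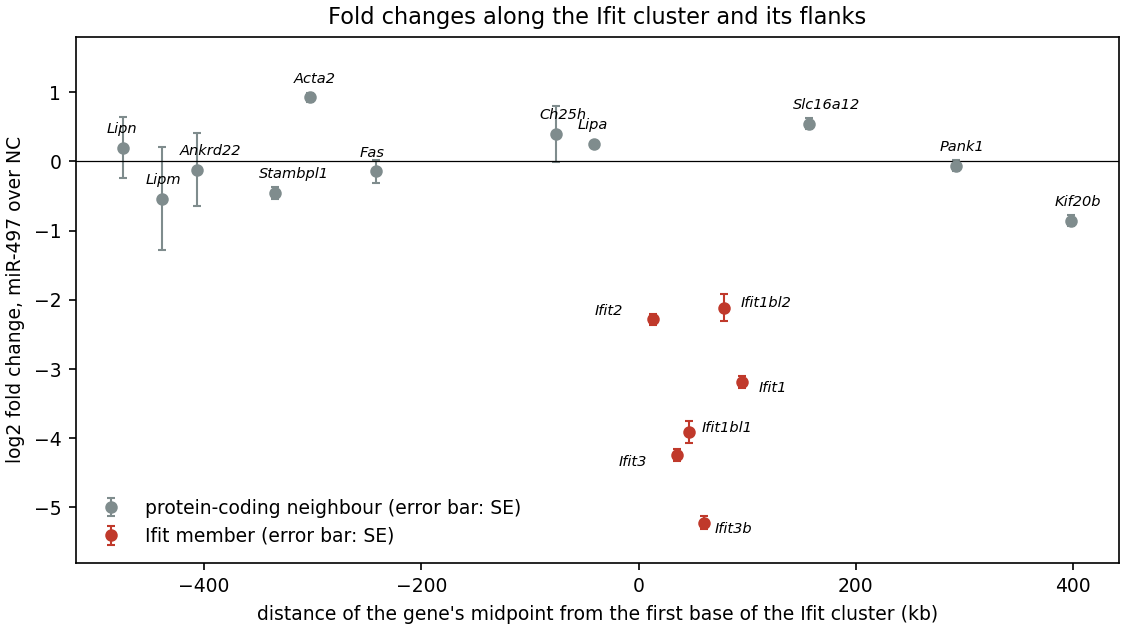
Log2 fold change (miR-497 over NC, error bars SE) of the Ifit genes (red) and of 11 protein-coding neighbours (grey), against the distance of each gene's midpoint from the first base of the cluster in kilobases. The red points lie between -5.22 and -2.11 and the grey points between -0.86 and 0.92.

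Genes that act upstream of Ifit transcription were listed by role. These lists, like those below, were chosen with earlier results of these data known. Among ligands, Ifnb1, the interferon most often made by non-immune cells, had 9, 26 and 4 counts with NC and 0, 7 and 0 with miR-497, and Ifna4 had 2, 11 and 5 against 0, 0 and 0. None of the 10 ligand genes passed the filter on low counts, and 6 had 0 counts in all libraries. Without that filter the other 4 entered the edgeR test, and Ifnb1 (log2 fold change -2.24, SE 0.908, edgeR adjusted p = 0.044) and Ifna4 (edgeR adjusted p = 0.020) were lower, where 16.6% of the 24072 genes then tested were. Ifna4 has near-identical relatives, so its counts are uncertain. Of 6 receptor and ISGF3 genes, 2 fell and 2 rose, close to the 26.0% and 23.8% of all genes tested, and the median log2 fold change was -0.02, as for all genes. Those that fell were Stat2 (-1.99, SE 0.0646, edgeR adjusted p = 5.1e-13) and Irf9 (-1.21, SE 0.0798, edgeR adjusted p = 2.5e-09). Both encode parts of ISGF3 and are interferon-induced themselves. The receptor genes Ifnar1 (0.18, SE 0.0605, edgeR adjusted p = 0.021) and Ifnar2 (0.37, SE 0.0918, edgeR adjusted p = 0.0032) rose, and 1 of the list rose instead of 2 without NC library 1, NC library 2 or miR-497 library 2. The receptor-bound kinases Jak1 (-0.05, SE 0.0545) and Tyk2 (-0.00077, SE 0.223) did not pass the threshold.

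Of 15 genes for sensors of foreign RNA and DNA and the factors they activate, 12 fell and 3 rose (edgeR adjusted p under 0.05), where 26.0% and 23.8% of all genes did, with a median log2 fold change of -1.07. The lowest were Zbp1, a sensor of Z-form nucleic acid (-3.66, SE 0.284, edgeR adjusted p = 1.7e-08), Irf7, an inducible factor that amplifies interferon production (-2.87, SE 0.0971, edgeR adjusted p = 8.3e-13), Dhx58 (-2.86, SE 0.0913, edgeR adjusted p = 4.4e-13) and Ifih1 (-2.30, SE 0.0882, edgeR adjusted p = 4.5e-12), which encode the RNA sensors LGP2 and MDA5. The Zbp1 value rests on few reads, with 16, 11 and 11 counts in the miR-497 libraries. Irf3, which can drive Ifit genes directly, fell less (-0.51, SE 0.0686, edgeR adjusted p = 9.9e-06). The 3 that rose were the adaptors Mavs (0.37) and Ticam1 (0.39) and the kinase gene Ikbke (0.57).

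Other interferon-induced effector genes went the same way as the Ifit genes. All 25 of the list fell, where 26.0% of all genes tested did. None rose by the edgeR test at either an adjusted or an unadjusted p under 0.05, or by DESeq2. This list, too, was chosen with earlier results of these data known, so the counts are a description. The median log2 fold change was -2.66, with a range from -5.26 to -0.70. The range of the Ifit genes, -5.22 to -2.11, lay inside it, with only Oas2 below Ifit3b. The largest falls were those of the RNA-sensing synthetases Oas2 (-5.26, SE 0.339, edgeR adjusted p = 2e-09) and Oas1a (-4.68, SE 0.188, edgeR adjusted p = 7.8e-12) and the antiviral GTPases Mx1 (-4.88, SE 0.358, edgeR adjusted p = 9.2e-09) and Mx2 (-4.28, SE 0.126, edgeR adjusted p = 1.7e-13). In the miR-497 libraries Oas2 had 6, 2 and 11 counts and Mx1 had 7, 3 and 9, so the size of their falls is uncertain. The Oas and Mx genes also have close relatives, and reads shared with these make single values uncertain. The promoter table held 18 of the 25 genes, and 9 of these had the GAAA word pair before a start, against 3.46% of all genes with an entry. On the other lists the pair occurred in 0 of 12 sensing genes with an entry, 4 of 10 ligand genes and 1 of 6 receptor and ISGF3 genes. It also occurred in 1 of 10 eIF3 genes and 0 of 5 cap methylation genes. Whether the pair bears on the fold changes was not tested.

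**Figure D4:**
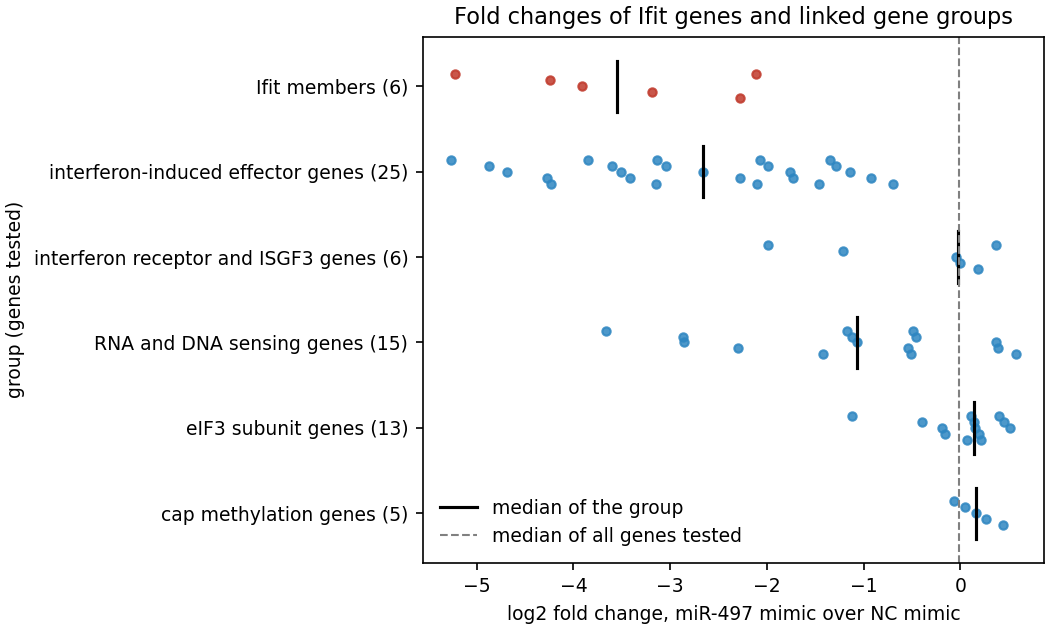
Each point is the log2 fold change (miR-497 over NC) of 1 tested gene, by group, with black lines at group medians and a dashed line at the median of all genes tested, -0.02. Ifit genes and the 25 effector genes all lie left of the dashed line, while receptor and ISGF3, eIF3 and cap methylation genes lie around it, apart from Stat2, Irf9 and Eif3i.

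The partners and the substrates of Ifit proteins in translation were examined last. Of 13 tested genes for subunits of eIF3, the initiation factor that binds the small ribosomal subunit, 4 fell and 6 rose, where 26.0% and 23.8% of all genes tested did, with a median log2 fold change of 0.14. Only 2 fell when NC library 3 or miR-497 library 3 was left out, and 4 rose without NC library 1 or miR-497 library 1. The largest change was the fall of Eif3i (-1.12, SE 0.0835, edgeR adjusted p = 1e-08), from 126 to 58.0 CPM on average, and Eif3g (0.51), Eif3d (0.45) and Eif3k (0.40) rose. Of the subunits reported to bind Ifit proteins, Eif3c fell slightly (-0.19, SE 0.0625, edgeR adjusted p = 0.016) and Eif3e did not pass (0.11, SE 0.0552, edgeR adjusted p = 0.10). Eif3m was listed at 0 in all 6 libraries and could not be assessed.

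Genes for cap formation and methylation, which bear on whether a transcript can be bound by Ifit1, were also listed. Of 5 tested, 1 rose and 0 fell by edgeR at an adjusted p under 0.05, where 23.8% and 26.0% of all genes tested did; without adjustment 3 rose and 0 fell, and DESeq2 gave 1 and 0. Rnmt, the cap guanine methyltransferase, rose from 71.99 to 97.5 CPM on average (log2 fold change 0.44, SE 0.0568, edgeR adjusted p = 6.7e-06). The number that rose was 2 without NC library 3, and 3 without miR-497 library 3 or with upper-quartile scaling. Cmtr1, the main cap ribose methyltransferase, was listed at 0 in every library and could not be assessed, and its relative Cmtr2 had an edgeR adjusted p of 0.064 (log2 fold change 0.26, SE 0.113).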

How the data were processed

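The data are 6 libraries of ADC106 cells, 3 per mimic. The deposited values are raw read counts per Ensembl gene, not normalized. The submitters' processing notes name STAR 2.5.4b, featureCounts, Subread 1.6.1, edgeR 3.32.1 and the build GRCm38, without roles; the annotation, strand setting, read length and treatment of multiply aligned reads are not given in the sources used here. Symbols, exons and transcripts came from GENCODE M21 (also GRCm38), which matched 55141 of 55401 identifiers.

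Genes were filtered with filterByExpr (minimum count 10, total 15), scaled by TMM and tested with edgeR 4.0.16 (quasi-likelihood, 2-sided, Benjamini-Hochberg over all genes, threshold 0.05) in R 4.3.3. The SE is the absolute log2 fold change over the square root of F. Profiles used log2 CPM with a prior count of 2. Word counts used exact matches over annotated transcripts on both strands; coding sequences were aligned with Biopython 1.88. DESeq2 1.42.0 served as an alternative test. The fit was tested on simulated data.

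The members and all lists were chosen with earlier results of these data known. Named genes are the members, up to 4 genes per list with the largest changes or a stated role, the 6 most similar profiles and all coding neighbours. Some list members are not reported here, and list counts leave them out.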

Additional observations from a re-analysis of the deposited data

How the results depend on the processing

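The Ifit log2 fold changes moved by less than the spread between replicates under every other scaling, filter and test and with the replicate block; leaving out 1 library at a time gave -3.26 to -3.09 for Ifit1, -2.35 to -2.20 for Ifit2, -4.32 to -4.20 for Ifit3, -5.29 to -5.17 for Ifit3b, -4.15 to -3.76 for Ifit1bl1 and -2.18 to -2.01 for Ifit1bl2. Adding counts of paralogs gave -4.48 for Ifit3 with Ifit3b, -3.20 for Ifit1 with Ifit1bl1 and Ifit1bl2, and -3.42 for all 6, by construction a value dominated by the most abundant genes. With the replicate block the log2 fold changes were -3.19, -2.28, -4.24, -5.21, -3.90 and -2.11 in the order Ifit1, Ifit2, Ifit3, Ifit3b, Ifit1bl1, Ifit1bl2. Between groups, libraries of one number deviated from their means with correlations of -0.12, -0.04 and -0.13, so the shared numbers were not taken as pairs. With the block 3563 genes were lower and 3177 higher, including 25 effector, 2 ISGF3 and 12 sensing genes lower, and 3 lower eIF3 genes in place of 4. The difference of mean log2 CPM with a prior count of 2 was added after seeing the data. Leaving out single libraries gave 2 to 4 lower eIF3 genes; the cause was not tested. With lengths of unique 100-base words 2 members changed place in the order of levels, both in the miR-497 group. The share of transcript words found in another gene fell with word length: with words of 50 and 150 bases it was 51.2% and 18.5% for Ifit3, 45.0% and 15.99% for Ifit3b, 7.13% and 1.24% for Ifit1, 6.60% and 0% for Ifit1bl1, and 9.34% and 0.963% for Ifit1bl2. Depth limits Ifit1bl1 and Ifit1bl2, with 47 to 65 counts in miR-497 libraries, and the interferon genes, with at most 26 counts a library. Without the filter on low counts 4 of the interferon genes were tested and 2 were lower. Oas2, Mx1 and Zbp1 are limited too, with at most 11, 9 and 16 counts in any miR-497 library.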
